A study of Arabidopsis thaliana with 9 samples.

Results

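Introns wider than 300 bases are the long class of Arabidopsis introns, and 14221 of the 120717 constitutive introns in the deposited intron tables fell in it by their width alone, with no read value used in the choice. They lay in 10284 of the 22235 genes that carry an intron in these tables. Their median width was 429 bases, against 99 bases over all introns, and its quartiles were 355 and 575 bases. The widths ran from 301 to 57631 bases, and 857 of these introns were wider than 1000 bases. Reads over each intron were counted in poly(A) RNA of whole Arabidopsis thaliana plants of the Col accession, grown in continuous light at 22 °C. The labels give harvest at 15 days, and the methods of the study give another age. WT was compared with the prmt5 mutant, which carries the prmt5-5 allele, and with prmt4a;4b, a double mutant made by crossing the T-DNA lines SALK_033423 and SALK_097442. Each genotype had 3 libraries, 9 in all, and each mutant was represented by 1 line. The labels do not say that the libraries of a genotype came from separate cultures, so p-values measure only the spread between these libraries, and in whole plants a change in the cells present and a change in RNA per cell cannot be told apart.

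Plant introns are mostly short, and the donor site at the 5′ end of the intron is recognised first by base pairing with U1 snRNA over the last exon bases and the first intron bases. The donor site in plants tends to carry A at position -2 and G at position -1, counted backwards from the last exon base, followed by GT. PRMT5 places symmetric dimethylarginine on proteins that include Sm proteins, the core proteins of spliceosomal snRNPs. PRMT4A and PRMT4B are homologues of the animal coactivator-associated arginine methyltransferase CARM1, which places asymmetric dimethylarginine. A long intron is more often the first of its gene than a short one: 42.4% of the long introns that matched a RefSeq transcript were intron 1, against 15.3% of those up to 300 bases, and 12.0% against 2.69% lay in the 5′ UTR. The median AT content was nearly the same in both classes, at 67.13% and 67.38%.

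The donor sites of the long introns that the results below turn on are shown first, with the exon bases that pair with U1 snRNA. Each run is read 5′ to 3′ from the RefSeq TAIR10.1 genome, whose nuclear chromosomes carry TAIR10 coordinates, with 3 exon bases in lower case and the first 8 intron bases in capitals. The first 8 were the introns with the highest index ratio in prmt5 against WT under the limits given below.
NADK1 intron 1, chr3:7383504-7383844, minus strand: actGTACTTCA
TAFII15 intron 3, chr4:15355050-15355450, minus strand: attGTAGGTAT
CBL3 intron 1, chr4:13410169-13410942, minus strand: ggcGTAAGGCT
ARA6 intron 2, chr3:20318936-20319373, plus strand: aagGTTTTTTT
RBP-DR1 intron 2, chr4:1378211-1378845, minus strand: gggGTTTGTTT
AT1G72175 intron 1, chr1:27158069-27158537, plus strand: gcgGTTTACCT
BIO2 intron 1, chr2:18012604-18012925, minus strand: ggaGTAATTTA
MSRB3 intron 1, chr4:2439789-2440516, plus strand: tgaGTAAAGTT
The next 8 had the highest ratio in prmt4a;4b against WT.
ILA intron 2, chr1:24082065-24082538, minus strand: gatGTAATCTG
PSBQA intron 1, chr4:11334723-11335091, plus strand: ttcGTAAGTTA
OTLD1 intron 1, chr2:11702707-11704056, minus strand: ccgGTGAGCTT
AT3G52120 intron 2, chr3:19329631-19330106, plus strand: ttgGTAATGCC
AT1G78070 intron 4, chr1:29355826-29357084, plus strand: cagGTAGAGAA
AT4G23910 intron 5, chr4:12427735-12428708, plus strand: aagGTCTAGAA
SPL13B intron 1, chr5:20617164-20617707, minus strand: ttgGTAAGATT
AT1G67900 intron 1, chr1:25464988-25467031, plus strand: attGTAAGTTT
The last 2 were called lower than in WT, UBP13 in both mutants and AT5G53850 in prmt5 but not in prmt4a;4b, where it was higher.
UBP13 intron 11, chr3:3766685-3767063, minus strand: gtgGTATGTAC
AT5G53850 intron 2, chr5:21863701-21864088, minus strand: aagGTATGGTT
The pair A at -2 and G at -1 ended the exon in 1 of the 8 introns highest in prmt5, in 2 of the 8 highest in prmt4a;4b, and in 53.4% of all long introns with a GT, GC or AT start. In prmt5 it did so in 44.0% of long introns called higher and 54.4% of those past the limits below but not called. In prmt4a;4b these shares were 48.4% and 55.3%. Each set of 8 was picked by its ratio and is too small to read against these shares.

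The libraries held between 25029646 and 39904677 gene reads and between 156478 and 311355 reads over long introns. Of the 14221 long introns, 2285 had no read in any library and 3259 had a read in every library. A single long intron, intron AT5G02370:I012, took 22.1% of these reads and overlaps an exon of the neighbouring gene AT5G02380. In all, 846 long introns overlap an exon of another gene, and since the libraries were not made with strand information, reads of the 2 genes cannot be separated there. Without these introns and those of the organelle genomes, the long-intron reads were, for every 1000000 gene reads, 2566, 2661 and 2742 in WT, 3771, 3977 and 3514 in prmt5, with 2758, 3337 and 2898 in prmt4a;4b. Every mutant library was above every WT library. Plastid genes took 0.323% to 0.58% of gene reads in WT, 0.604% to 2.10% in prmt5 and 0.869% to 3.94% in prmt4a;4b, and their part in the results was not tested. Over 10032 introns of nuclear genes with a mean under 1 normalized read in each genotype, 1.07 to 1.60 reads for every 1000000 gene reads were found in WT, 1.05 to 1.82 in prmt5 and 1.26 to 2.49 in prmt4a;4b.

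Retention of long introns was higher in both mutants than in WT. It was measured as the splicing index, the read density over the intron divided by the read density over the exons of its gene in the same library, so that a value near 0 means few unspliced reads and a value of 1 means as many reads per base in the intron as in the exons. For a view that uses no intron value to choose introns, the index was averaged over the 9450 nuclear long introns whose gene had over 0.05 normalized reads per base in each genotype and that overlap no exon of another gene. The mean index was 0.0244, 0.0244 and 0.0277 in the WT libraries, 0.0469, 0.0416 and 0.0422 in prmt5, with 0.0365, 0.0381 and 0.0373 in prmt4a;4b. The 3 genotypes did not overlap, with WT lowest and prmt5 highest. The group means were 0.0255 ± 0.0019 in WT, 0.0435 ± 0.0029 in prmt5 and 0.0373 ± 0.00079 in prmt4a;4b (SD, n = 3), 1.71 and 1.46 times the WT level. An index over 0.05 was reached by 11.3% ± 1.2 of these introns in WT, 20.6% ± 1.5 in prmt5 and 18.0% ± 0.38 in prmt4a;4b (SD, n = 3).

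In both mutants the ratio of the mean index to that of WT was higher in each wider class. The WT mean itself fell with width, from 0.0775 up to 85 bases to 0.0255 over 300 bases. The prmt5 mean was 0.102 up to 85 bases and 0.0435 over 300 bases, and the prmt4a;4b mean 0.0894 and 0.0373. A larger ratio thus does not mean a larger gain in index. The difference from WT was smallest in the long class in prmt5, and in prmt4a;4b no larger there than up to 85 bases. In prmt4a;4b the mean index was 1.15 times the WT mean over introns up to 85 bases, 1.17 times over 85 to 120 bases, 1.26 times over 120 to 300 bases and 1.46 times over 300 bases. In prmt5 the same ratios were 1.32, 1.51, 1.63 and 1.71. In prmt5 relative to prmt4a;4b they were 1.15, 1.29, 1.29 and 1.17, so the mutants lay closer to each other in the long class than in the middle classes. The order depends on the measure. With the summed intron density over the summed gene density, the ratios to WT were 1.123, 1.075, 1.124 and 1.247 in prmt4a;4b. In prmt5 they were 1.272, 1.321, 1.403 and 1.5. These are descriptions of averages over introns, and no test was made on them.

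**Figure D1:**
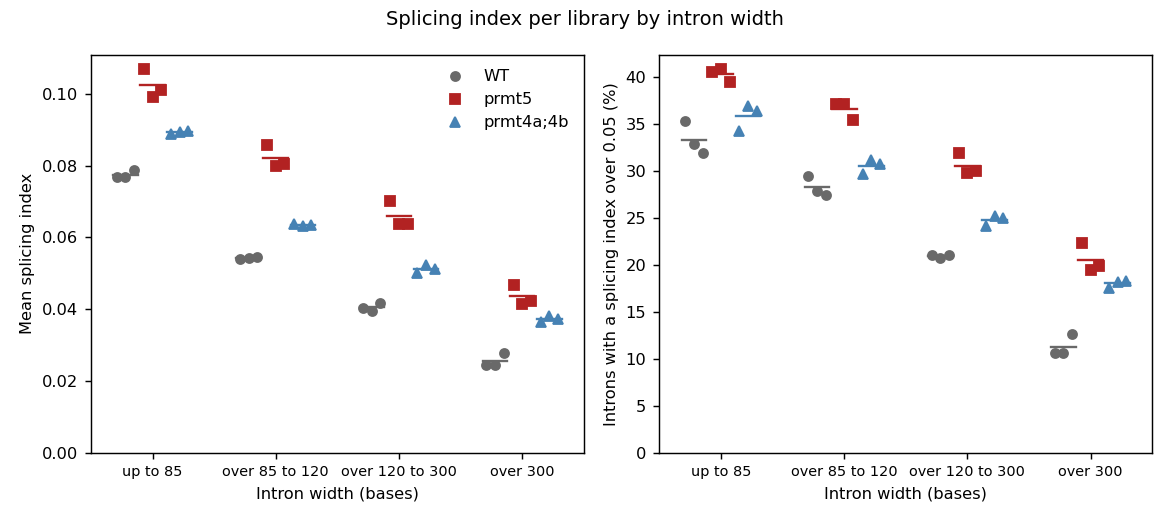
Mean splicing index (left) and share of introns with an index over 0.05 (right) for each of the 9 libraries in 4 width classes, over nuclear introns of genes with over 0.05 normalized reads per base in each genotype; points are libraries and short lines are group means. In the class over 300 bases the WT libraries sit between 0.0244 and 0.0277, below all prmt4a;4b libraries (0.0365 to 0.0381) and all prmt5 libraries (0.0416 to 0.0469).

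For a test of single introns, edgeR's quasi-likelihood test was run on the reads of all introns whose mean reached 5 reads in either genotype, scaled by the gene reads, with Benjamini-Hochberg adjustment over all introns tested. An intron was called where the adjusted p was under 0.15, the log2 read change and the log2 index ratio both passed 0.58 in the same direction, the gene had over 0.05 normalized reads per base in both genotypes, and the index was over 0.05 in at least 1. The last limits left 1842 long introns in prmt5 against WT, 1473 in prmt4a;4b against WT and 2008 in prmt5 against prmt4a;4b. An intron can pass them through the genotype where it is high alone, so counts among those that passed are no evidence on the 14221 as a whole.

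In prmt5 against WT, 801 long introns in 771 genes were called higher and 60 lower. That was 43.5% higher and 3.26% lower of those past the minimums, beside 33.8% and 6.93% of all introns past them, and 32.4% and 7.45% of introns up to 300 bases. The order turned when the calls were set against every intron tested: 18.8% of the 4270 long introns tested were called higher and 1.41% lower, beside 23.9% and 4.9% of all 20967 introns tested. Of the long introns tested, 1842 passed the minimums, against 14835 of all, so the choice of denominator decides whether the long class stood above or below the background in prmt5. The index of those called higher had a median of 0.0247 in WT and 0.120 in prmt5. In prmt4a;4b against WT, 432 long introns in 425 genes were called higher and 64 lower, which was 29.3% and 4.34%, beside 14.9% and 10.2% of all introns and 12.7% and 11.2% of introns up to 300 bases. Of all tested, the shares were 12.3% and 1.82% of 3516 long introns, beside 10.3% and 7.05% of 16090 introns, so here the long class stood above the background for higher calls on both scales. Their index had a median of 0.0383 in WT and 0.128 in prmt4a;4b. In the short classes of prmt4a;4b, 9.67% were called higher and 11.7% lower up to 85 bases, and 12.3% and 12.6% from 85 to 120 bases. DESeq2 called 637 higher and 42 lower in prmt5 against WT, and 274 higher and 36 lower in prmt4a;4b against WT. With prmt4a;4b replicate 2 left out, 285 long introns were called higher in prmt4a;4b, and with replicate 3 left out 42 were called lower.

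In prmt5 against prmt4a;4b, 383 long introns were higher in prmt5 and 114 were higher in prmt4a;4b. These were 19.1% and 5.68%, beside 21.6% and 2.67% of all introns past the minimums. Of all tested, they were 8.82% and 2.63% of 4341 long introns, beside 15.3% and 1.9% of 19904 introns. Of introns up to 300 bases past the minimums, 22.0% were higher in prmt5 and 2.18% in prmt4a;4b. The direct fit used all 9 libraries, and on the mutant libraries alone it gave 425 and 139 long introns. DESeq2 gave 277 and 73. The count higher in prmt4a;4b was 66 without prmt5 replicate 2 and 75 without prmt5 replicate 3.

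Within the long class the median index ratios were also taken by width. Medians were taken over introns with a mean of at least 5 raw reads over all libraries of a comparison. This limit takes both genotypes together, but deeper libraries weigh more in it and an intron high in a single genotype can still pass. A fixed read count is also a lower density limit in a wider intron, so the width classes hold introns chosen at unlike densities. In prmt5 against WT the median log2 index ratio was 0.53 from 300 to 350 bases and 0.53 from 350 to 400. It was 0.60 from 400 to 500, 0.59 from 500 to 700, 0.64 from 700 to 1000 and 0.52 over 1000 bases, with no steady order by width. In prmt4a;4b against WT the median was 0.22 from 300 to 350, 0.34 from 350 to 400, 0.49 from 400 to 500, 0.55 from 500 to 700, 0.60 from 700 to 1000 and 0.51 over 1000 bases. The order of the medians in prmt4a;4b thus followed width up to 1000 bases. In prmt5 against prmt4a;4b the median went from 0.24 at 300 to 350 bases to 0.01 over 1000 bases, where 14 introns were higher in prmt5 and 17 in prmt4a;4b. Over all long introns it was 0.57, 0.445 and 0.12 in the 3 comparisons, and over all introns 0.415, 0.16 and 0.23.

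**Figure D2:**
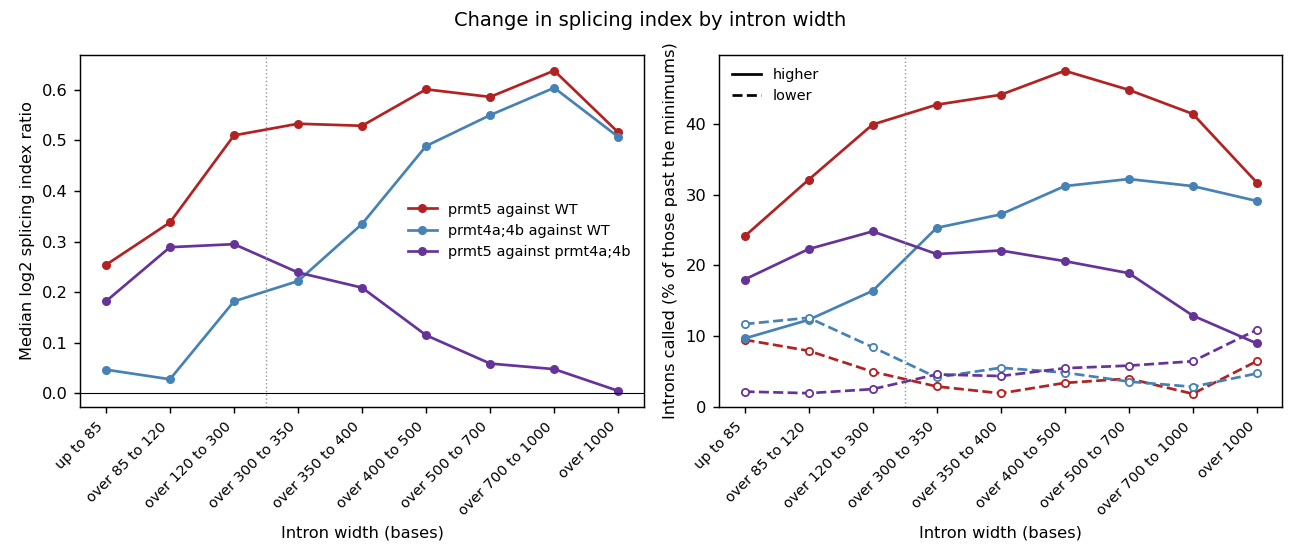
Median log2 splicing index ratio over introns with a mean of at least 5 reads over all libraries (left) and percent of introns called higher (solid) or lower (dashed) among those past the minimums (right) in 9 width classes; the dotted line marks 300 bases. The prmt4a;4b curve goes from 0.22 in the class from 300 to 350 bases to 0.60 in the class from 700 to 1000 bases, while the prmt5 curve stays between 0.52 and 0.64 over the long classes.

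Shares by the last exon letters are given for introns past the minimums, which an intron can pass through the mutant alone. Past the minimums and away from exons of other genes, 167 of 256 long introns with neither A at -2 nor G at -1 were called higher in prmt5 (65.2%), against 322 of 803 with both (40.1%). Introns with G at -1 alone gave 48.7% and those with A at -2 alone 45.5%. In prmt4a;4b the same classes gave 39.3%, 27.3%, 31.0% and 33.9%. In the direct comparison 41.2% of those with neither letter were higher in prmt5, against 16.0% of those with both, and 2.92% and 6.10% were higher in prmt4a;4b. Shorter introns had the same order: A at -2 and G at -1 ended the exon in 40.7% of those called higher in prmt5 and in 60.0% of those not called, beside 44.0% and 54.4% of long introns. With G at +5, another base that pairs with U1 snRNA, 45.4% were called higher in prmt5 against WT, and without it 47.9%. In the direct comparison 17.8% with it and 24.1% without it were higher in prmt5, with median log2 index ratios of 0.165 and 0.387. Position in the gene gave a similar picture in both mutants, since 5′ UTR introns were called higher in 58.3% (prmt5) and 42.8% (prmt4a;4b) and coding introns in 47.0% and 27.5%. First introns were called higher in 54.7% and 34.5%, and later introns in 42.9% and 27.5%. An exon of another transcript of the same gene in RefSeq crosses 2526 long introns, and of those past the minimums 39.5% were called higher in prmt5, against 51.2% of those without such an exon. In prmt4a;4b the shares were 31.9% and 28.9%. Such an exon lay over 272 of the 801 long introns called higher in prmt5 (34.0%), beside 46.9% of those past the minimums but not called. For prmt4a;4b it lay over 211 of the 432 called higher (48.8%), beside 46.9%. These shares describe introns, which share genes and libraries, and were not tested.

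**Figure D3:**
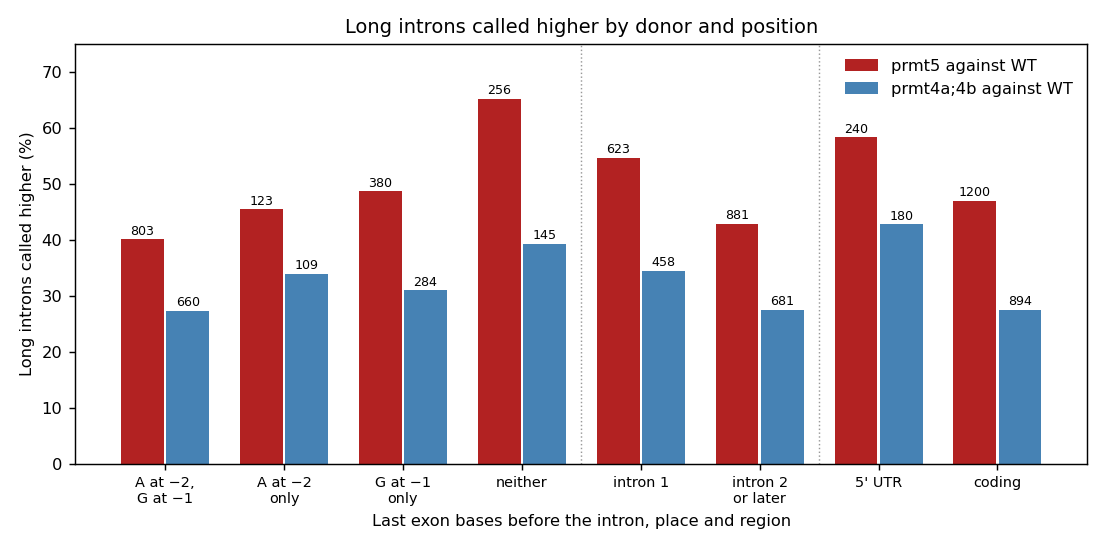
Percent of long introns called higher in prmt5 (red) and in prmt4a;4b (blue) against WT by the exon letters at -2 and -1, by place in the transcript and by region; the number over each bar is the number of introns past the minimums. The bar for donors with neither letter is 65.2% in prmt5 and 39.3% in prmt4a;4b.

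A small set of 17 long introns began with the U12-type donor sequence GTATCCTT or ATATCCTT, read by the minor spliceosome, which is 0.121% of long introns against 0.209% of shorter ones. Of these, 7 were tested in each mutant comparison; none was called in prmt5 and 2 were called higher in prmt4a;4b, beside 18.8% and 12.3% of all long introns tested called higher, and 7 introns are too few to read against these shares. ECT3, which encodes a reader of N6-methyladenosine in RNA, had 4, 0 and 2 reads over intron 1 in WT, 11, 4 and 10 in prmt5, with 10, 11 and 7 in prmt4a;4b, and its donor is accGTATCCTT. The log2 read change was 2.37 ± 0.80 in prmt4a;4b (SE, edgeR's quasi-likelihood test, adjusted p = 0.0498) and 1.90 ± 0.86 in prmt5 (adjusted p = 0.0991), and the direct difference of -0.48 ± 0.64 for prmt5 against prmt4a;4b did not pass the test (adjusted p = 0.657). The mean index was 0.0479 in prmt5, just under the minimum of 0.05, and 0.0633 in prmt4a;4b, so the difference in call turned on that limit. AT1G06515 intron 2 had 1, 1 and 0 reads in WT, 2, 4 and 5 in prmt5, with 5, 7 and 10 in prmt4a;4b, with tcaGTATCCTT as donor. Both rest on few reads, and these 2 introns were chosen after their values were seen.

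For the genes that held these introns, calls on gene reads are given beside the shares over all genes. Of 801 long introns called higher in prmt5, the gene was not called for 599 (74.8%), higher for 136 (17.0%) and lower for 66 (8.24%). Of the 432 in prmt4a;4b the counts were 348 (80.6%), 42 (9.72%) and 42 (9.72%). Over all genes tested, 13.5% were higher and 12.5% lower in prmt5, and 13.6% and 12.2% in prmt4a;4b. Most genes were thus not called, with or without such an intron. In prmt5, 436 of the 801 had a shorter intron of the same gene past the minimums, and in 248 of these (56.9%) a shorter one was also called higher, against 45.5% where the long intron was not called higher. In prmt4a;4b the counts were 48 of 186 (25.8%) against 19.4%. Among 98 genes with at least 2 long introns past the minimums in prmt5, 21 had all of them higher, 43 some and 34 none.

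Among introns with a mean of at least 50 normalized reads in the higher genotype and with separate index values, the highest in prmt5 were nearly absent from WT. NADK1, an NAD kinase that makes NADP, had 2, 0 and 1 reads over intron 1 in WT and 129, 133 and 110 in prmt5. In prmt4a;4b it had 4, 6 and 0 reads. Its index was 0.0069 ± 0.0069 in WT and 0.256 ± 0.046 in prmt5 (SD, n = 3). The read change was 6.69 ± 0.52 on the log2 scale (SE, adjusted p = 5.77e-11), and the gene reads also rose, by 1.52 (adjusted p = 5.67e-05). TAFII15, a TBP-associated factor of TFIID, had 1, 7 and 2 reads over intron 3 in WT, 82, 101 and 79 in prmt5, with 4, 3 and 6 in prmt4a;4b. The index was 0.441 ± 0.0026 in prmt5 against 0.013 ± 0.0086 in WT, and the gene reads did not pass the test (log2 change -0.335, adjusted p = 0.145).

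CBL3, a calcineurin B-like calcium sensor, had the most reads of this group. Over intron 1 in the 5′ UTR it had 11, 10 and 8 reads in WT, 479, 459 and 392 in prmt5, with 21, 55 and 24 in prmt4a;4b. The log2 read change was 5.41 ± 0.34 in prmt5 (adjusted p = 7.98e-13). In prmt4a;4b it was 1.99 ± 0.43 (adjusted p = 0.00463), but the index of 0.048 ± 0.020 stayed under the minimum of 0.05. The direct comparison gave 3.41 ± 0.32 (adjusted p = 1.24e-10). The CBL3 gene was called higher in prmt5 against WT, by 0.714 on the log2 scale. ARA6, a Rab GTPase of endosomes, had 1, 4 and 10 reads over intron 2 in WT, 178, 127 and 151 in prmt5, with 3, 7 and 11 in prmt4a;4b. RBP-DR1, an RNA-binding protein named for a role in defence, had 6, 4 and 7 in WT, 137, 163 and 137 in prmt5, with 18, 13 and 13 in prmt4a;4b over its intron 2. Both reached an index over 0.7 in prmt5, 0.715 ± 0.16 and 0.738 ± 0.13, without a called change of the gene. The RBP-DR1 intron was called in prmt4a;4b too (log2 read change 1.59 ± 0.54, adjusted p = 0.0522), but not at an adjusted p under 0.05 or without WT replicate 2 or prmt4a;4b replicate 1.

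The other 3 of the 8 were also first introns. AT1G72175 had 3, 7 and 0 reads in WT, 97, 117 and 86 in prmt5, with 0, 10 and 11 in prmt4a;4b, and its index of 0.979 ± 0.13 in prmt5 was near that of its exons. BIO2, biotin synthase, had 0, 2 and 5 in WT, 58, 74 and 59 in prmt5, with 1, 2 and 1 in prmt4a;4b. MSRB3, a methionine sulfoxide reductase, had 2, 0 and 4 in WT, 66, 68 and 72 in prmt5, with 0, 2 and 5 in prmt4a;4b. In these 3 no prmt4a;4b library reached the lowest prmt5 library. The gene was called higher in prmt5 for AT1G72175 and MSRB3, by 0.643 and 0.805 on the log2 scale, but not for BIO2 (0.233). Like BIO2 and MSRB3, GLX2-4 and AT2G47410 were among the 4 introns furthest above prmt4a;4b in the direct comparison. GLX2-4, of the glyoxalase II family, had 1, 10 and 2 reads over intron 1 in WT, 82, 76 and 62 in prmt5, with 0, 1 and 1 in prmt4a;4b (direct log2 difference 6.22 ± 0.65, adjusted p = 2.44e-09). AT2G47410 had 1, 2 and 3 over intron 3 in WT, 85, 92 and 75 in prmt5, with 1, 3 and 1 in prmt4a;4b (5.22 ± 0.51, adjusted p = 5.34e-10). The AT2G47410 gene was called higher in prmt5 as well, by 1.312 against WT and 1.369 against prmt4a;4b on the log2 scale.

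**Figure D4:**
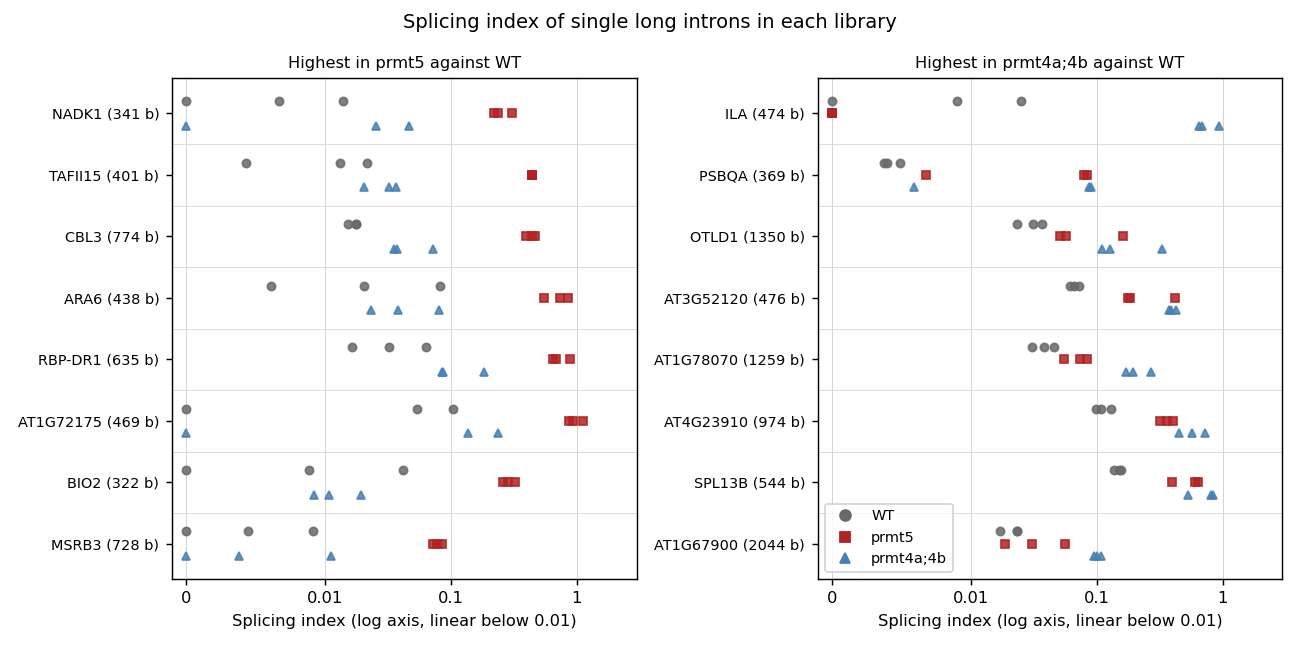
Splicing index of the 8 long introns highest in prmt5 (left) and of the 8 highest in prmt4a;4b (right) against WT, one point per library, on an axis that is logarithmic above 0.01 and linear below it. On the left the prmt5 libraries stand alone to the right of both other genotypes; on the right most introns are raised in both mutants, while ILA is near 0.763 in prmt4a;4b with no read in prmt5.

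Of the 8 introns highest in prmt4a;4b, 5 were called higher in prmt5 too. The 2 sets of 8 cannot be read against each other. Each was picked by its own ratio, and NADK1, TAFII15, BIO2 and MSRB3 had too few reads for a test in prmt4a;4b against WT. Over long introns tested in both mutants, 201 were higher in both. Another 290 were higher in prmt5 and not called in prmt4a;4b, and 171 the reverse. ILA, a HEAT-repeat protein required for immunity, was the exception with the widest gap. Over its intron 2 it had 1, 3 and 0 reads in WT, none in any prmt5 library and 77, 70 and 56 in prmt4a;4b. The index in prmt4a;4b was 0.763 ± 0.16, against 0.011 ± 0.013 in WT, with a log2 read change of 5.80 ± 0.52 (adjusted p = 7.68e-08) and no called change of the gene. Against the limit of 3 reads over the 3 prmt5 libraries, prmt4a;4b was at least 86.6-fold higher. RefSeq places an exon of another ILA transcript over this intron. The same holds for the named introns of NADK1, CBL3, ARA6, AT1G72175, AT2G47410, AT1G67900, AT1G78070, SPL13A and SPL13B. Among introns of the gene lists, it holds for FLM introns 1 and 4, PTB1, PTB2, FLK, AGL16, PRR3, FAR1 and others. Whether reads there came from such a transcript or from unspliced RNA was not tested.

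AT1G78070 intron 4 and AT1G67900 intron 1 were the 2 others called in prmt4a;4b only. AT1G78070 had 17, 27 and 16 reads in WT, 22, 22 and 28 in prmt5, with 74, 49 and 44 in prmt4a;4b. Its gene reads were lower in both mutants, by -0.69 and -0.73 on the log2 scale, so the index rose more than the reads, to 0.211 ± 0.051 in prmt4a;4b from 0.038 ± 0.0075 in WT. AT1G67900 had 13, 21 and 15 in WT, 15, 12 and 5 in prmt5, with 46, 55 and 45 in prmt4a;4b. In the direct comparison both were higher in prmt4a;4b, with log2 differences of -1.58 ± 0.35 (adjusted p = 0.00153) and -2.52 ± 0.41 (adjusted p = 1.75e-05) for prmt5 against prmt4a;4b. The gene reads of AT1G67900 were lower in prmt5 as well, by -1.435 against WT (adjusted p = 6.76e-05) and by -1.005 against prmt4a;4b (adjusted p = 0.000196), so its direct log2 index ratio was -1.525. That of AT1G78070 was -1.58, with a direct gene difference of 0.037.

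Of the 3247 long introns tested against WT in both mutants, 201 were called higher in both and 22 lower in both. A further 2 were lower in prmt5 and higher in prmt4a;4b, with 0 the other way, beside 2483 called in neither. The 2 comparisons share the WT libraries. The same overlap was not counted over all introns, so it cannot be read as particular to long ones. AT4G23910 intron 5, of 974 bases, had 24, 32 and 28 reads in WT, 111, 172 and 111 in prmt5, with 63, 132 and 69 in prmt4a;4b. The log2 read changes were 2.09 ± 0.31 (adjusted p = 8.56e-06) and 1.87 ± 0.32 (adjusted p = 0.000643), and the direct difference of 0.22 ± 0.29 did not pass the test (adjusted p = 0.651). The AT4G23910 gene was called higher in prmt5 than in prmt4a;4b, by 0.921 on the log2 scale. Its intron index was 0.362 in prmt5 and 0.582 in prmt4a;4b. AT3G52120 intron 2 had 21, 25 and 20 in WT, 76, 69 and 63 in prmt5, with 48, 67 and 52 in prmt4a;4b. Its gene was called lower in prmt4a;4b against WT, by -1.014 on the log2 scale, but was not called in prmt5 (-0.278). OTLD1, an otubain-like deubiquitinase of histones, had 20, 20 and 18 over its leader intron in WT, 62, 31 and 25 in prmt5, with 31, 50 and 117 in prmt4a;4b, where 1 library stood far above the others. Its prmt5 call was lost under DESeq2, at an adjusted p under 0.05 and without prmt5 replicate 1, WT replicate 1 or WT replicate 2. The OTLD1 gene was called lower in prmt5 and in prmt4a;4b against WT, by -0.598 and -0.693 on the log2 scale.

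SPL13A and SPL13B, 2 squamosa promoter-binding-like transcription factors that are near-identical copies, carried the same reads in every library over their leader introns of 544 bases: 9, 18 and 10 in WT, 71, 71 and 55 in prmt5, with 36, 83 and 56 in prmt4a;4b. Reads of the pair cannot be divided between the copies, so they count as 1 measurement, with a log2 read change of 2.32 ± 0.37 in prmt5 and 2.47 ± 0.37 in prmt4a;4b. PSBQA, a subunit of the oxygen-evolving complex of photosystem II, had 55, 59 and 62 reads over intron 1 in WT, 1264, 1716 and 147 in prmt5, with 83, 1330 and 1291 in prmt4a;4b. In each mutant 1 library was far below the other 2: prmt5 replicate 3 and prmt4a;4b replicate 1 lay nearer to WT than to their own group. The prmt5 call was lost without prmt5 replicate 1 or 2, and the prmt4a;4b call without prmt4a;4b replicate 2 or 3. The group means of the index, 0.057 ± 0.043 and 0.061 ± 0.047 against 0.0042 ± 0.0006 in WT, thus rest on 2 libraries of each mutant.

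Few long introns were lower in a mutant. UBP13, a ubiquitin-specific protease, had 60, 66 and 40 reads over intron 11 in WT, 17, 26 and 17 in prmt5, with 8, 11 and 10 in prmt4a;4b. The log2 read change was -1.57 ± 0.35 for prmt5 (adjusted p = 0.00115). For prmt4a;4b it was -2.24 ± 0.37 (adjusted p = 0.000547). The index went from 0.301 ± 0.041 in WT to 0.080 ± 0.014 and 0.049 ± 0.003. AT1G73655 intron 2 had 228, 300 and 127 in WT, 109, 136 and 112 in prmt5, with 77, 63 and 60 in prmt4a;4b, and ACO1, an aconitase, had 70, 72 and 57, then 46, 33 and 35, then 17, 40 and 25 over intron 16. The lowest WT library of AT1G73655, at 127 reads, lay below the highest prmt5 library, while the index values of the genotypes did not overlap between WT and either mutant. The ACO1 call was lost in prmt5 without prmt5 replicate 2 and in prmt4a;4b without prmt4a;4b replicate 1. AT5G60400:I002 had 155, 169 and 81, then 36, 67 and 31, then 29, 77 and 52, and matched no RefSeq intron. AT5G60400 was called lower in both mutants, as was ACO1. SDG2, a histone H3 lysine 4 methyltransferase, and UVR8, the UV-B photoreceptor, were lower in prmt4a;4b only. SDG2 intron 4 had 42, 73 and 58 reads in WT, 30, 54 and 51 in prmt5, with 20, 23 and 11 in prmt4a;4b. UVR8 intron 6 had 49, 63 and 53 in WT, 65, 131 and 94 in prmt5, with 36, 21 and 17 in prmt4a;4b, and was higher in prmt5 than in prmt4a;4b in the direct comparison (1.56 ± 0.33, adjusted p = 0.000999). Its call against WT (adjusted p = 0.0857) was lost under DESeq2, at an adjusted p under 0.05, and without WT replicate 3 or prmt4a;4b replicate 2 or 3. All of the 4 lowest introns in each mutant were introns 2 or later where RefSeq gives a number.

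Both introns called in opposite directions are crossed by an exon of their own gene in RefSeq. AT5G53850 intron 2 had 35, 14 and 33 reads in WT, 9, 6 and 4 in prmt5, with 84, 129 and 106 in prmt4a;4b. The reads of the 3 genotypes did not overlap, with an index of 0.078 ± 0.038, 0.023 ± 0.014 and 0.334 ± 0.028. In the index WT and prmt5 overlapped, since WT replicate 2 at 0.0355 lay below prmt5 replicate 1 at 0.0387. AT1G53780 intron 1, in the 5′ UTR, had 10, 45 and 32 in WT, 19, 17 and 15 in prmt5, with 42, 62 and 47 in prmt4a;4b. WT overlapped both mutants there. The prmt5 call of AT1G53780 against WT (adjusted p = 0.146) was lost under 10 of the alternatives, among them DESeq2 and leaving out WT replicate 2 or 3 or prmt5 replicate 2 or 3, and its prmt4a;4b call was lost under 4, which left out WT replicate 1 or prmt4a;4b replicate 2 or 3 or used an adjusted p under 0.05.

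**Figure D5:**
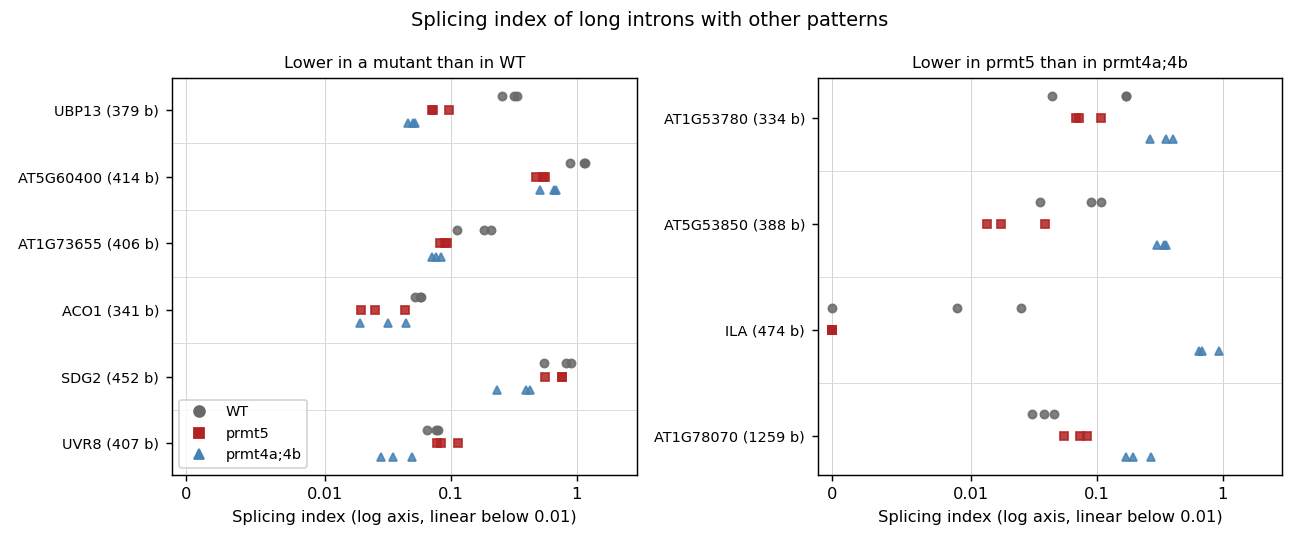
Splicing index per library of the long introns lowest in a mutant against WT (left) and of those lower in prmt5 than in prmt4a;4b (right), on the same axis as the plot of the highest introns. AT5G53850 lies near 0.023 in prmt5, 0.078 in WT and 0.334 in prmt4a;4b, and UBP13 falls from 0.301 in WT to 0.080 and 0.049 in the mutants.

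Among the long introns that are known in the plant literature, those of flowering genes carried few reads. FLM, listed as MAF1, is a floral repressor of the MADS-box family whose first intron spans 2470 bases. It had 8, 7 and 1 reads in WT, 60, 81 and 48 in prmt5, with 14, 31 and 28 in prmt4a;4b, and the groups did not overlap. Against WT the reads changed by 3.44 ± 0.45 (log2, adjusted p = 1.05e-06) in prmt5. In prmt4a;4b they changed by 2.43 ± 0.53 (adjusted p = 0.00471), with no called change of the gene (0.11 and -0.03). The intron was not called, because the index of 0.047 ± 0.011 in prmt5 stayed under 0.05. The last intron of SVP, a floral repressor that acts with FLM, had 4, 5 and 1 reads in WT, 14, 15 and 17 in prmt5, with 22, 16 and 19 in prmt4a;4b, again below the index minimum. Intron 6 of SVP had 23, 16 and 30 in WT, 18, 19 and 26 in prmt5, with 39, 52 and 22 in prmt4a;4b, where it was called higher (0.90 ± 0.39, adjusted p = 0.117), a call lost under DESeq2 and without WT replicate 1 or 2 or prmt4a;4b replicate 1 or 2.

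The leader of AT1G58602, the disease resistance gene RPP7, holds an intron of 7384 bases with heterochromatin that the reader EDM2 acts on, and an exon of AT1G58561 overlaps it. It had 132, 150 and 92 reads in WT, 37, 93 and 74 in prmt5, with 138, 205 and 131 in prmt4a;4b. Its index was 0.0545 ± 0.0046, 0.0390 ± 0.0135 and 0.064 ± 0.0099. The intron was lower in prmt5 than in prmt4a;4b (-1.60 ± 0.29, adjusted p = 0.000105), beside a lower gene (-0.885, adjusted p = 0.00015), a call lost without prmt4a;4b replicate 2 or prmt5 replicate 1. The second intron of the leader, of 4420 bases, had 7, 10 and 7 reads in WT, 18, 15 and 21 in prmt5, with 15, 21 and 22 in prmt4a;4b, with an index under 0.02 in each genotype. AT3G05410 intron 2, of 5748 bases and overlapped by an exon of AT3G05415, had 31, 43 and 23, then 36, 54 and 65, then 37, 39 and 38. The PHYA leader intron had 28, 3 and 8 reads in WT, 16, 52 and 10 in prmt5, with 27, 35 and 44 in prmt4a;4b, and WT overlapped prmt5. Of the 12 genes of this list, 13 long introns were tested in prmt5 and 14 in prmt4a;4b; 1 was called higher and 1 lower in prmt5, and 1 higher in prmt4a;4b. The background for this and the following lists is the share of all long introns tested that was called higher, 18.8% for prmt5 and 12.3% for prmt4a;4b, beside 23.9% and 10.3% of all introns tested. With so few introns a list, no list is set apart from it. Those in prmt5 were FPA:I001, with 0, 2 and 2 reads in WT, 5, 9 and 12 in prmt5, with 2, 3 and 11 in prmt4a;4b with no match to a RefSeq intron and an exon of AT2G09470 over it, and intron 4 of FLM, which had 3, 16 and 11, then 1, 7 and 4, then 0, 7 and 2. The FLM call was lost under DESeq2 and without WT replicate 2 or 3 or prmt5 replicate 1 or 3, and that of FPA without prmt5 replicate 3.

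Genes of the splicing machinery held both called and uncalled long introns. Of 13 tested long introns in the list of snRNP proteins and other regulators, 3 were called higher in prmt5 and 0 lower, with a median log2 index ratio of 0.33, and of 10 in prmt4a;4b 2 were higher, with a median of 0.29, beside the background of 18.8% and 12.3%. U2AF35A, the small U2AF subunit that reads the AG at the acceptor site, had 6, 10 and 12 reads over its leader intron in WT, 107, 126 and 106 in prmt5, with 18, 23 and 24 in prmt4a;4b. The log2 read change in prmt5 was 3.46 ± 0.37 (adjusted p = 3.16e-08), while that of the gene was 0.60 (adjusted p = 0.00333). An exon of AT1G27640 overlaps this intron, and reads of the 2 genes cannot be separated there. Its paralogue U2AF35B was called higher over its last intron, in the 3′ UTR and overlapped by AT5G06395, in prmt4a;4b only, with 49, 45 and 65, then 78, 106 and 93, then 79, 138 and 99 reads, a call lost without WT replicate 1 or 2 or prmt4a;4b replicate 2. PTB1, a polypyrimidine tract-binding protein, had 4, 2 and 9 reads over intron 2 in WT, 44, 51 and 43 in prmt5, with 4, 15 and 18 in prmt4a;4b. Its gene was called higher in prmt5 against WT, by 1.288 on the log2 scale, beside a log2 index ratio of 1.728. PTB2 had 6, 11 and 5, then 27, 33 and 12, then 9, 6 and 1 over intron 6. The call of PTB1 in prmt4a;4b was lost under DESeq2 and without WT replicate 1 or 2 or prmt4a;4b replicate 2 or 3.

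SR proteins, the serine/arginine-rich factors that recruit the spliceosome, often carry a long regulated intron. Of 16 tested long introns of SR genes 1 was called higher in prmt5 and 0 lower, and of 15 in prmt4a;4b none was called in either direction, beside 18.8% and 12.3% of all long introns tested called higher. Their medians of 0.055 and 0.04 lay below the 0.67 and 0.51 of all tested long introns. The called one was SCL30A intron 3, with 32, 53 and 53 reads in WT, 120, 136 and 106 in prmt5, with 59, 115 and 70 in prmt4a;4b, and its log2 index ratio of 0.585 stood at the limit. The call was lost with index ratios centred on the median and without WT replicate 1 or prmt5 replicate 2. The gene itself was higher in both mutants, by 0.685 and 0.945 on the log2 scale.

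Of 12 tested long introns of circadian clock genes, 3 were called higher in prmt5 and 0 lower (median 1.00), and of 10 in prmt4a;4b 0 were called in either direction (median 0.85), beside 18.8% and 12.3% of all long introns tested called higher. In the direct comparison 0 of 12 were called in either direction, so a difference between the mutants was not shown for this list. PRR3, a pseudo-response regulator, had 7, 2 and 3 reads over its leader intron in WT, 19, 18 and 15 in prmt5, with 4, 13 and 6 in prmt4a;4b. TOC1, an evening clock repressor, had 3, 3 and 1, then 7, 13 and 10, then 5, 7 and 6 over intron 1. JMJD5, a JmjC-domain protein of the clock, had 18, 4 and 27, then 27, 54 and 54, then 21, 40 and 22 over intron 2, and WT and prmt5 touched at 27 reads. The JMJD5 call was lost with the gene count as an offset, with centred index ratios and without WT replicate 2. In the autonomous flowering pathway FLK, a KH-domain RNA-binding protein, had 6, 6 and 9 reads over its leader intron in WT, 140, 163 and 127 in prmt5, with 8, 11 and 17 in prmt4a;4b (log2 change in prmt5 4.21 ± 0.38, adjusted p = 1e-09). Its gene rose as well, by 1.485 on the log2 scale in prmt5. FY intron 9 had 10, 9 and 13, then 2, 10 and 5, then 5, 1 and 1, and was called lower in prmt4a;4b, a call lost without WT replicate 1 or 3 or prmt4a;4b replicate 2 or 3 and under DESeq2. That list gave 2 higher and 0 lower of 7 tested in prmt5, and 0 higher and 1 lower of 7 in prmt4a;4b, counts too small to read against 18.8% and 12.3%.

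Among MADS-box genes of the MIKC class, 1 of 13 tested long introns was higher and 1 lower in prmt5, and 2 of 11 were higher and 1 lower in prmt4a;4b, with medians of 1.26 and 1.11, beside 18.8% and 12.3% higher of all long introns tested. AGL16 intron 2 of 1203 bases was higher in both, with 21, 11 and 13 reads in WT, 30, 21 and 36 in prmt5, with 35, 53 and 45 in prmt4a;4b. Its prmt5 call (adjusted p = 0.137) was lost under DESeq2 and without WT replicate 2 or 3 or prmt5 replicate 1 or 3. AGL31 intron 6 was lower in prmt4a;4b, with 30, 45 and 45, then 22, 29 and 40, then 15, 23 and 15 reads, a call lost under DESeq2 and without WT replicate 3 or prmt4a;4b replicate 1 or 3. Of the light-signalling list, 2 of 11 were higher in prmt5 and 2 of 8 in prmt4a;4b, again few introns against the 18.8% and 12.3% of all long ones. COP1, the E3 ligase that represses photomorphogenesis, had 1, 3 and 0, then 10, 4 and 7, then 0, 0 and 1 reads over its leader intron, and FAR1, a transcription factor of phytochrome A signalling, had 6, 4 and 2, then 19, 16 and 18, then 2, 6 and 12. The COP1 call in prmt5 was lost without WT replicate 1 or 3 or prmt5 replicate 1. HFR1 and PHYB were called higher in prmt4a;4b, HFR1 from 1, 2 and 1 reads in WT to 10, 6 and 3, and PHYB from 11, 17 and 10 to 31, 18 and 17. Both calls were lost under DESeq2 and without WT replicate 1, that of HFR1 also without prmt4a;4b replicate 2 and that of PHYB without prmt4a;4b replicate 1. In prmt5, HFR1 had 7, 1 and 1 reads and was not tested against WT. PHYB had 20, 29 and 24 there and was not called, with a log2 index ratio of 0.529. Neither intron was called in the direct comparison, so a difference between the mutants was not shown.

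The leader introns of ubiquitin, actin, elongation factor and profilin genes are long and stand in strongly expressed genes. Of 8 tested in each mutant comparison 0 passed the index minimum, so none could be called, and the median log2 index ratios were -0.29 in prmt5 and 0.04 in prmt4a;4b. Of the arginine methyltransferase genes, 1 long intron was tested in each comparison and none was called. Of the 2 genes of readers of intronic heterochromatin, 1 long intron was tested in prmt5 and 0 in prmt4a;4b, and none passed the minimums. In AT5G63460, a gene studied for its splicing, the long intron 1 had at most 3 reads in any library and was not tested.

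Among introns free of exons of other genes, of the 3 long ones with the most reads in WT only that of TPS-CIN was called. EXT4, an extensin of the cell wall, had 4452, 3510 and 4158 reads over intron 1 in WT, 8330, 18269 and 14797 in prmt5, with 2720, 3392 and 2962 in prmt4a;4b. Its index was over 1 in WT (1.58 ± 0.04) and prmt5 (1.22 ± 0.19), and the gene rose by 1.95 in prmt5, more than the intron reads (1.59 ± 0.22), so the index ratio of -0.37 pointed the other way. GRP7, a clock-driven RNA-binding protein that regulates its own splicing, had 2118, 2540 and 2263 in WT, 2001, 3068 and 2440 in prmt5, with 1511, 2572 and 1596 in prmt4a;4b over its only intron, with changes of -0.02 ± 0.21 and -0.07 ± 0.21 that did not pass the test (adjusted p = 0.941 and 0.842). TPS-CIN:I008, in a cineole synthase gene, had 1730, 2369 and 1536, then 605, 1251 and 856, then 629, 970 and 1164, and matched no RefSeq intron. The gene has a near-identical copy, AT3G25830, so its reads are uncertain. The intron was called lower in prmt4a;4b, where the reads fell by 0.77 ± 0.23 on the log2 scale (adjusted p = 0.0287). The widest tested long introns free of other exons, the second leader intron of AT1G58602 above, AT2G03330 intron 1 (2, 3 and 16 reads in WT, 1, 2 and 1 in prmt5, 4, 1 and 2 in prmt4a;4b) and AT3G42466 intron 1 (0, 4 and 6, then 6, 6 and 4, then 5, 4 and 0), were not called.

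At the edge of the class, the introns of 301 and 300 bases with the most reads were as follows. SAC3A, related to a subunit of the mRNA export complex TREX-2, had 7, 4 and 8 reads in WT, 95, 86 and 81 in prmt5, with 5, 4 and 2 in prmt4a;4b over an intron of 301 bases. EXPB3, a beta-expansin, had 38, 54 and 49, then 46, 74 and 70, then 23, 33 and 33 over another of 301 bases. Just outside, at 300 bases, AT5G64400 had 90, 87 and 115, then 227, 432 and 467, then 160, 393 and 207 over intron 1, and AT5G25270 had 40, 59 and 34, then 93, 118 and 131, then 39, 58 and 50 over intron 14. Of these 4, SAC3A was called higher in prmt5 and AT5G64400 in both mutants against WT, and EXPB3 and AT5G25270 were not called against WT. The AT5G64400 calls were lost with centred index ratios, and that in prmt4a;4b also without WT replicate 1 or 2 or prmt4a;4b replicate 2.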

How the data were processed

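Whole-plant poly(A) RNA was sequenced in 3 libraries of each of 3 genotypes. The authors mapped reads with TopHat2 2.0.9 to TAIR10 and deposited counts of reads per gene and per constitutive intron, with effective widths, one table per mutant with the same WT libraries in both. Their submitters' notes also name R 3.0.2 and edgeR 3.4.2. Counting was not stated to use strand. The deposited columns of the authors' own fold changes and p-values, and the tables of alternative splicing events, were not used. No per-sample column was left unmapped (0 columns). Introns were tested with edgeR 4.0.16 (R 4.3.3, quasi-likelihood test, TMM factors and library sizes of the gene counts, Benjamini-Hochberg adjustment over all introns tested), where the mean reached 5 reads in 1 genotype. Each mutant was tested against WT on the libraries of those genotypes, while the direct comparison was fitted on all 9 libraries. Genes were tested likewise with a mean of at least 10 reads, and a gene was called where the adjusted p was under 0.1 and the log2 change passed 0.58. The splicing index was averaged over libraries, and 0.5 reads in 1 library were added in its log2 ratio to keep it finite. Scripts were tested on simulated data. Replicates of a genotype were not copies of one library. Positions, regions, overlaps and sequences come from RefSeq annotation on the same nuclear coordinates, which 13706 of the 14221 long introns matched. Alternatives were edgeR's exact test, DESeq2 1.42.0, other scalings, filters and thresholds, a replicate block, introns over other genes left out, and each library left out in turn.

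Named introns followed a rule, restricted for the ranked ones to introns free of exons of other genes. It took the 8 highest and 4 lowest index ratios per mutant with a mean of at least 50 reads and separate library indexes, the 6 most changed in both mutants, all called in opposite directions, the 4 highest and 4 lowest between the mutants, the 3 with most WT reads, the 3 longest tested, 2 on each side of the width limit, the tested introns of a list of known long introns and the called ones of the other gene lists. The members, lists and rule were chosen with earlier results of these data known.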

Additional observations from a re-analysis of the deposited data

Results flagged for a closer look

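For 2 long introns the change against WT was called in opposite directions in the mutants, and the direct comparison passed the test. AT5G53850 intron 2 had a log2 read difference of -4.38 ± 0.42 for prmt5 against prmt4a;4b (SE, edgeR's quasi-likelihood test, adjusted p = 3.6e-10), after -2.24 ± 0.52 in prmt5 and 2.15 ± 0.34 in prmt4a;4b against WT, with the reads of every prmt5 library below and of every prmt4a;4b library above those of the WT libraries, while the index of WT and prmt5 overlapped. AT1G53780 intron 1 had a direct difference of -1.90 ± 0.40 (adjusted p = 0.000704), after -0.86 ± 0.44 in prmt5 against WT (adjusted p = 0.146). In prmt4a;4b against WT it was 1.04 ± 0.37 (adjusted p = 0.0662), and the range of the WT reads overlapped that of each mutant. The AT1G53780 call in prmt5 was lost under 10 alternatives and that in prmt4a;4b under 4.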

How the results depend on the processing

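No named intron called against WT or between the mutants changed direction under any alternative run. Against 801 higher and 60 lower long introns in prmt5, 432 and 64 in prmt4a;4b and 383 and 114 in the direct comparison, an adjusted p under 0.05 left 37 lower in prmt5, 228 and 31 in prmt4a;4b and 250 and 57 in the direct comparison. DESeq2 gave 274 and 36 in prmt4a;4b and 73 lower in the direct comparison, and without a count filter 93 were lower in prmt5. With each library left out in turn the counts were 675 to 832 higher and 48 to 74 lower in prmt5, 285 to 446 and 42 to 65 in prmt4a;4b, and 305 to 323 and 66 to 119 in the direct comparison; the lowest count in prmt4a;4b came without its replicate 2 (285) and, for lower introns, replicate 3 (42), and the direct one without prmt5 replicate 2 (66), with 75 without prmt5 replicate 3. The median log2 index ratio of 0.671 in prmt5 and 0.509 in prmt4a;4b became 0.566 and 0.445 with a mean of 5 reads over all libraries, which tests fewer introns, and 0.445 to 0.563 in prmt4a;4b with a library left out. Scaling by the intron reads shifted the median of all introns by -0.206, -0.1 and -0.105 on the log2 scale. With the replicate block the counts were 744 and 53, 390 and 60, and 338 and 97. Correlations of same-numbered deviations ran from -0.237 to 0.172 over long introns and from -0.16 to 0.198 over genes. The highest of each were for replicate 2 of the mutants, so pairing by number is not excluded there. Of the named introns called, 25 of 37 in prmt5, 15 of 28 in prmt4a;4b and 19 of 26 in the direct comparison were called under every alternative. Where calls were lost, the cause was not tested. Depth limits the class: 2285 long introns had no read. Read changes that were not called changed sign 50 times, all of them of introns except 1 of the host gene AT1G06130. Of the 50, 33 came with a library left out, and 1 became a call. That was AT4G23910 intron 5, prmt5 against prmt4a;4b, from 0.222 to -0.686 on the log2 scale with the gene count as an offset, which tests the intron relative to its gene. The same offset gave, in prmt5 against WT, -0.369 for EXT4 (1.59 without it), -0.202 for AT5G25270 (1.264) and 0.708 for AT1G67900 (-0.701); in prmt4a;4b against WT, -0.162 for JMJD5 and 0.013 for PTB2; and between the mutants, 0.427 for AT1G58602:I002, -0.327 for AT3G05410, 0.314 for TPS-CIN, -0.149 for ACO1 and -0.279 for AT5G25270. Scaling by the intron reads gave -0.03 for AT1G58602:I008 and -0.037 for AT1G78070 in prmt5 against WT, and -0.062 for GRP7 and -0.034 for AT3G05410 between the mutants. The replicate block gave 0.023 for PSBQA between the mutants, and RLE size factors -0.001 for the gene reads of AT1G06130 in prmt5. With a library left out, the changes in prmt5 against WT ran from -0.057 to 1.401 for AT3G42466, -0.093 to 0.099 for GRP7, -0.578 to 0.104 for SVP:I007, -0.089 to 0.623 for AT1G58602:I008 and -0.01 to 1.995 for PHYA. In prmt4a;4b against WT they ran from -0.84 to 0.297 for PTB2 and -0.259 to 0.056 for GRP7. Between the mutants they ran from -0.43 to 0.146 for PHYB, -0.052 to 0.236 for GRP7, -0.054 to 1.41 for FPA:I001, -0.716 to 0.279 for FPA:I007, -0.125 to 0.445 for ACO1, -0.464 to 0.228 for SVP:I002, -0.211 to 0.083 for AT3G52120, -0.666 to 0.384 for PSBQA, -0.377 to 0.09 for SPL13A and SPL13B, -0.096 to 1.091 for AT3G42466 and -0.145 to 0.192 for AT3G05410.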
